A study of Mus musculus with 29 samples.

Results

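Kupffer cells are the resident macrophages of the liver, and the 10 genes described here, Clec4f, Cd5l, Vsig4, Timd4, Marco, Folr2, Cd163, Cdh5, Slc40a1 and Id3, were chosen by name as markers of their identity, out of 55421 genes listed in the count table. Whole liver of mice was measured by bulk polyA RNA-seq in 6 groups. Young vehicle females and males were 5 months old and of the substrain labelled C57BL6/N, and old vehicle and old HDM201 mice were C57BL/6J, with females of 20 months and males of 24 months, so that age and substrain cannot be told apart. HDM201 is an inhibitor of MDM2, the ubiquitin ligase that holds the p53 protein low. Treated mice received 10 mg/kg of it by gavage every day over 14 days, in phosphate-buffered methylcellulose, and old vehicle mice are the controls. Read counts were analysed for 27 mice, namely 5 young vehicle, 4 old vehicle and 5 old HDM201 females, and 4 young vehicle, 4 old vehicle and 5 old HDM201 males, with 16485900 to 23570458 reads on genes in each mouse (median 19149235). Xist and Ddx3y matched the labelled sex in 27 of 27 mice. Old vehicle male 1 and young vehicle male 5 were analysed only as the authors' FPKM, and they stood apart from the other males of their groups. Old vehicle male 1 was above all of them in 9 of the 10 genes, and young vehicle male 5 was above all in 8 and below all in Slc40a1 and Id3. Comparisons that involve vehicle males are therefore also given with these mice, by limma on FPKM. Levels are given as CPM, the reads on a gene divided by the library's scaled total in mega-reads. In whole liver, fewer Kupffer cells and less RNA of a gene per cell give the same lower CPM and cannot be told apart.

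Kupffer cells sit in the sinusoids, where they take up particles, bacteria and ageing red cells from portal blood. Their identity depends on neighbouring cells: Notch ligands and the BMP ligands made by the sinusoidal endothelium and stellate cells, together with the nuclear receptor LXR (Nr1h3), impose it on macrophages that settle there. Cells seeded before birth carry TIM4, encoded by Timd4, whereas macrophages that come later from blood monocytes take up CLEC4F early and TIM4 late. Among the 10 genes, Clec4f encodes a C-type lectin that binds glycans with terminal galactose, Vsig4 a complement receptor, Marco and Cd163 scavenger receptors, Timd4 a receptor for phosphatidylserine on dying cells, and Folr2 a folate receptor. Cd5l encodes a secreted protein of macrophages, Slc40a1 the iron exporter ferroportin, Cdh5 the adhesion molecule VE-cadherin, which is best known from endothelium, and Id3 an inhibitor of helix-loop-helix transcription factors that responds to BMP signals.

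On the mouse genome GRCm38, to which the build mm10 used by the authors corresponds, Clec4f lies at chr6:83644542-83656187, Vsig4 at chrX:96247203-96293438, Marco at chr1:120474538-120505024, Folr2 at chr7:101839988-101857194 and Slc40a1 at chr1:45908068-45926523, each on the minus strand. Cd5l lies at chr3:87357881-87371073, Timd4 at chr11:46810800-46844332, Cd163 at chr6:124304656-124330527, Cdh5 at chr8:104101625-104144511 and Id3 at chr4:136143497-136145755, each on the plus strand. The annotation places the antisense gene Gm29682 over Cdh5, and the antisense gene Gm10602 and the pseudogene Gm45319 over Folr2. Whether the counting used strand is not given in the sources used here, so reads of those overlapping genes could not be separated from reads of Cdh5 and Folr2.

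A promoter window of 300 bases (250 before the start and 50 from it; RefSeq, GRCm38.p6) was found for 8 of the 10 genes and not for Cdh5 or Slc40a1. The windows of Clec4f (chr6:83656067-83656366, minus strand), Cd5l (chr3:87357631-87357930, plus strand), Vsig4 (chrX:96293389-96293688, minus strand) and Timd4 (chr11:46810549-46810848, plus strand) are shown because these 4 genes varied together between mice of the same group, as described further on. Each is written 5′ to 3′ on the strand of its gene, and capitals mark matches on either strand to any of 5 short motifs named in the next paragraph.
Clec4f: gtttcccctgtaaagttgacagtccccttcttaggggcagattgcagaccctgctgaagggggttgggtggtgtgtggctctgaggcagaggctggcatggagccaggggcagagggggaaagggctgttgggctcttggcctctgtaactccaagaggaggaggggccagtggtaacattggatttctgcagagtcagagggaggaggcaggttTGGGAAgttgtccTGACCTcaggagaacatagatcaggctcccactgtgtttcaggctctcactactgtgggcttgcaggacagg
Cd5l: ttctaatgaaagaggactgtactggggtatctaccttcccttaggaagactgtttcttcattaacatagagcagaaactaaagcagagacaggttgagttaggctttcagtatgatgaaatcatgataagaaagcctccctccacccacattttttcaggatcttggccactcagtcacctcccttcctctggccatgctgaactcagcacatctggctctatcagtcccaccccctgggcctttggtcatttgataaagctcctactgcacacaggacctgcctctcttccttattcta
Vsig4: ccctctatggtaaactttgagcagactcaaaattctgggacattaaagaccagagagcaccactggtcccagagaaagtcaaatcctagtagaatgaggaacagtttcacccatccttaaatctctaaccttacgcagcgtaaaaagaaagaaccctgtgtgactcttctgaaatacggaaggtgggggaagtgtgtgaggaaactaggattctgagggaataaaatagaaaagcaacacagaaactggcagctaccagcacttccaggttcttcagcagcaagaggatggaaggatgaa
Timd4: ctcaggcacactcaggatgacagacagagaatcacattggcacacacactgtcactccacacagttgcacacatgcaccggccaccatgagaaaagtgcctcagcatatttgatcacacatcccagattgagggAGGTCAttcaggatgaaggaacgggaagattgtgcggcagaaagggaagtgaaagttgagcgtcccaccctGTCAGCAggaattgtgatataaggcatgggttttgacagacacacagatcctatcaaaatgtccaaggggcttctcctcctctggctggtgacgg

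The motifs searched were GAGGAAGT (PU.1 and SPIC), TGGGAA (RBPJ, the Notch effector), GGCGCC (SMAD, BMP response), AGGTCA (nuclear receptors, LXR among them) and TGCTGAC (MAF). In the Clec4f window TGGGAA began at -35 and the reverse complement of AGGTCA at -22, counted in bases from the start. The Timd4 window held AGGTCA at -116 and the reverse complement of TGCTGAC at -45, and the Marco window the reverse complement of TGGGAA at -24. The windows of Cd5l, Vsig4, Folr2, Cd163 and Id3 held none of these letters. Over all 32851 windows of this length, 25.6% held TGGGAA, 16.3% AGGTCA, 11.9% GGCGCC, 4.67% TGCTGAC and 3.2% GAGGAAGT, so that matches in 2, 2, 0, 1 and 0 of the 8 members are a description of these windows only.

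The members differed widely in level. Averaged over the 27 mice and divided by the merged exon length of the gene, Id3 had 49.3 CPM per kb, Cd5l 36.1, Clec4f 33.9, Slc40a1 16.7 and Vsig4 15.4. Cdh5 followed with 4.64 CPM per kb, Marco with 3.11, Folr2 with 2.13, Timd4 with 1.78 and Cd163 with 1.62. The lowest value of any member was 0.218 CPM, for Folr2 in young vehicle male 3. For 7 of the 10 genes the highest group mean CPM was that of old vehicle females. The exceptions were Cd163, highest in young vehicle females, Slc40a1, highest in young vehicle males, and Id3, highest in old HDM201 females. In mean FPKM, with the 29 mice, Slc40a1 (49.56) and Id3 (102.4) were also highest in old vehicle females. Slc40a1 measured 40.47 FPKM in young vehicle males and Id3 102.2 FPKM in old HDM201 females. In the order of the 6 group means, neighbouring groups overlapped in CPM for every member.

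**Figure D1:**
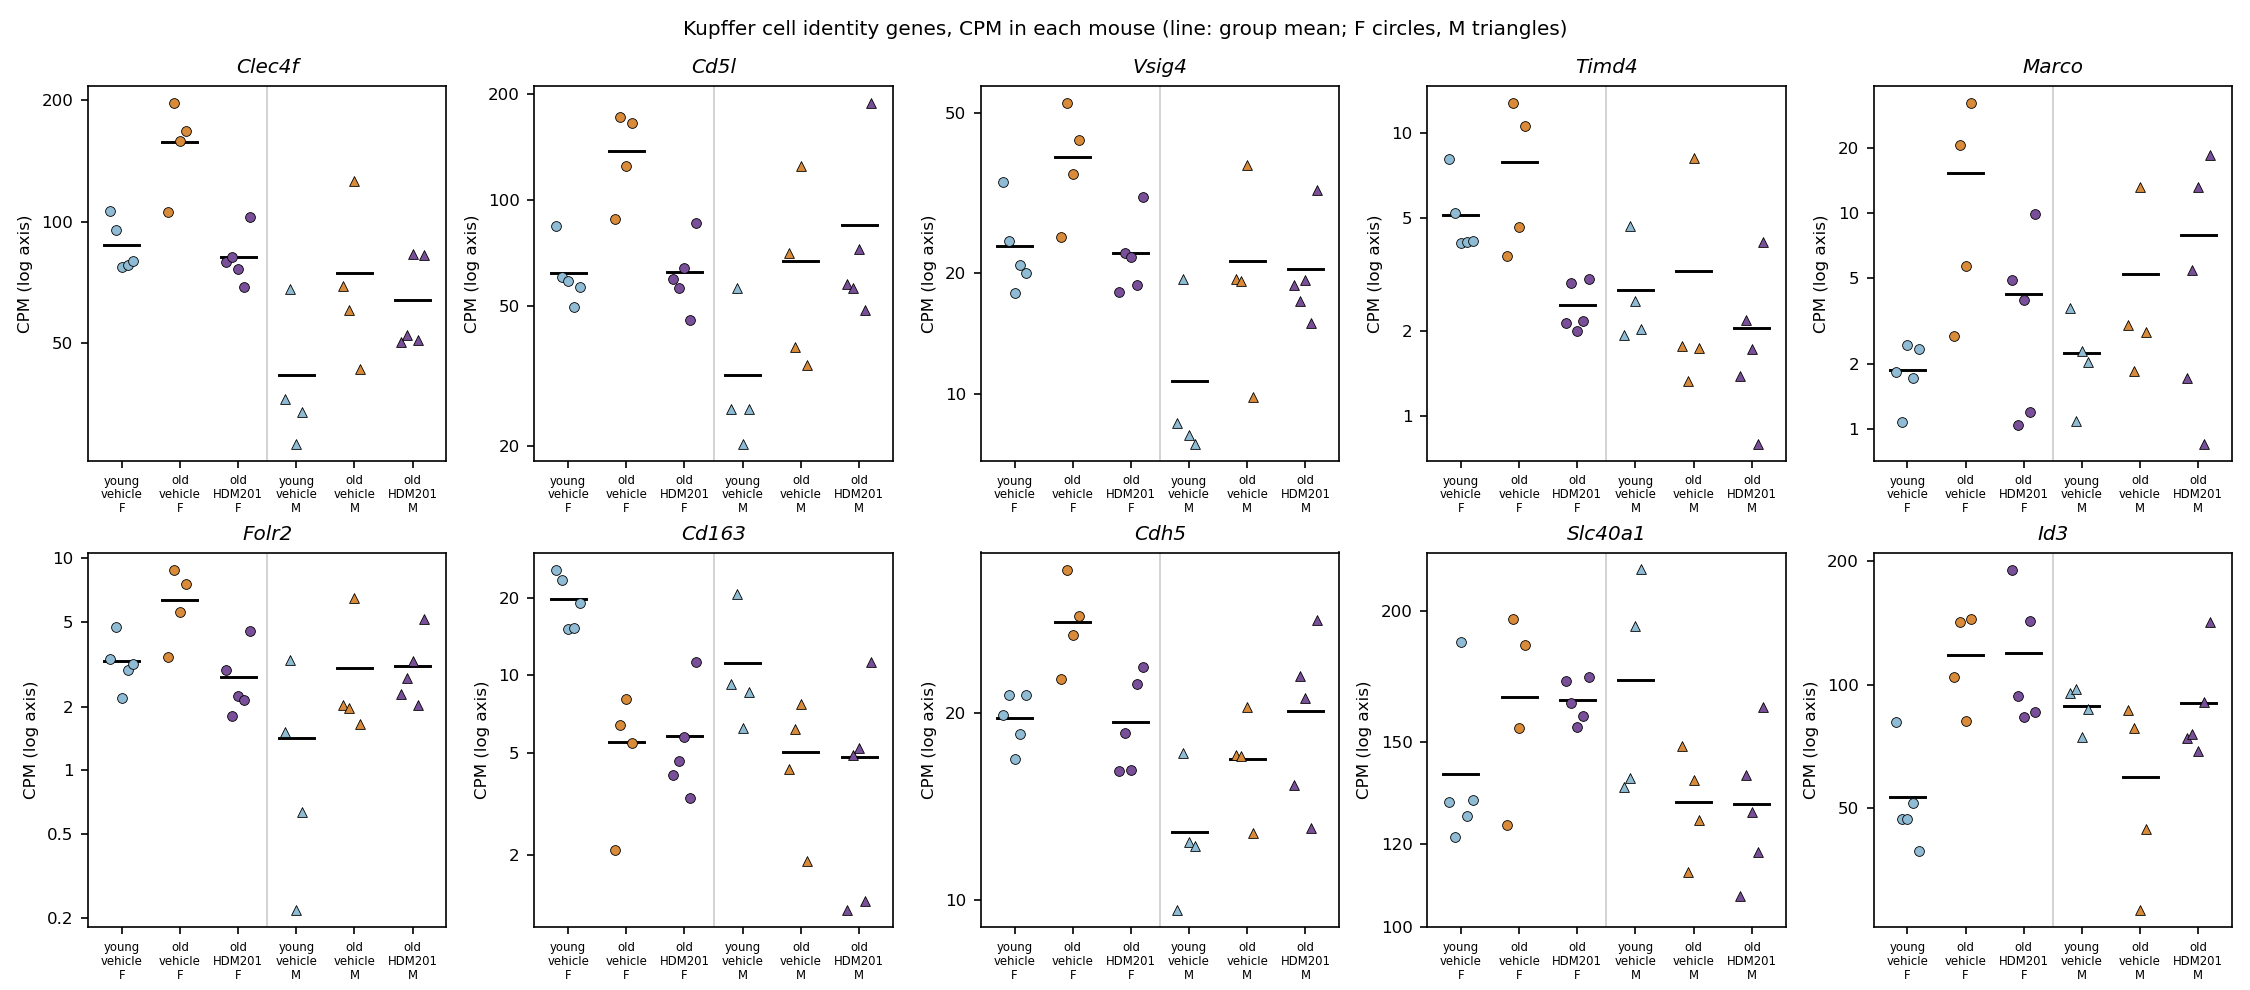
CPM of each of the 10 genes (log axis) in every mouse of the 6 groups, with circles for females (F), triangles for males (M) and a line at the group mean. Old vehicle females are highest for Clec4f, Cd5l, Vsig4, Timd4, Marco, Folr2 and Cdh5, and both young groups are highest for Cd163.

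Clec4f, the most specific marker of mouse Kupffer cells among the 10, was highest in old vehicle females, at 106, 197, 159 and 168 CPM. It measured 79.7, 81.9, 76.3, 69.0 and 102 CPM in old HDM201 females and 106, 95.5, 77.3, 78.0 and 80.0 CPM in young vehicle females. Every old HDM201 female was below every old vehicle female, while the old HDM201 and young vehicle females covered the same range. In males the values were lower, at 36.3, 68.2, 28.2 and 33.9 CPM in young vehicle, 69.5, 60.6, 126 and 43.2 CPM in old vehicle and 50.5, 52.4, 83.0, 51.1 and 82.6 CPM in old HDM201 mice. The 3 male groups overlapped.

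The comparison of old HDM201 with old vehicle females asked whether the MDM2 inhibitor changed these genes in aged liver. With HDM201, 6 of the 10 genes were lower at a false discovery rate (FDR, over all genes tested) under 0.05 in edgeR, and none was higher. Of all 14445 genes tested, 5.25% changed in either direction and 2.90% were lower. The median log2 fold change of the 10 genes was -0.89, against 0.0 over all genes. For Clec4f, Cd5l and Timd4, 3 of the 10 genes, the CPM of treated and control mice did not overlap, which was so for 10.2% of all genes.

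Timd4 had the steepest fall of the 6. It measured 3.69, 12.8, 4.65 and 10.6 CPM in old vehicle females and 2.14, 2.95, 2.00, 2.18 and 3.05 CPM in old HDM201 females, a log2 fold change of -1.72 ± 0.34 (SE, FDR = 0.0184, n = 4 and 5). All treated mice lay below the lowest control, although the controls themselves differed widely. The secreted factor Cd5l measured 88.2, 171, 124 and 165 CPM in old vehicle females and 59.4, 55.9, 63.9, 45.5 and 85.6 CPM in old HDM201 females, with a log2 fold change of -1.16 ± 0.2 (FDR = 0.011). Clec4f fell by 0.96 ± 0.16 on the log2 scale (FDR = 0.00987). Folr2 (-1.24 ± 0.3, FDR = 0.0392), Vsig4 (-0.82 ± 0.2, FDR = 0.0412) and Cdh5 (-0.55 ± 0.14, FDR = 0.0458) also fell, with groups that overlapped, since old vehicle female 1 lay within the treated range.

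The remaining 4 genes did not pass the test. Marco measured 2.69, 20.6, 5.70 and 32.3 CPM in old vehicle females and 4.91, 1.04, 3.95, 1.20 and 9.91 CPM in old HDM201 females, so that a mean difference of -1.89 ± 0.7 on the log2 scale came with an FDR of 0.13. The scavenger receptor Cd163, at 0.06 ± 0.39 (FDR = 0.943), the iron exporter Slc40a1, at -0.03 ± 0.11 (FDR = 0.91), and Id3, at -0.01 ± 0.26 (FDR = 0.993), had differences near 0. For Cd163 the standard error leaves room for a change as large as some of those called.

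The calls in old females changed with the fit and with single mice. When all 6 groups shared 1 estimate of it, 0 of the 10 genes passed (FDR 0.0524 for Clec4f, 0.0529 for Timd4 and 0.103 to 0.163 for Cd5l, Cdh5, Folr2 and Vsig4), and limma on the authors' FPKM also called 0, while DESeq2 called the same 6 genes. Leaving out old vehicle female 2, old vehicle female 4 or old HDM201 female 4 left 2 calls, Clec4f and Cd5l, and leaving out old HDM201 female 1, 2 or 3 left 3. Clec4f and Cd5l kept an FDR under 0.05 whichever mouse was left out (highest 0.0359 and 0.044). Marco joined the 6 with no filter on low counts (FDR = 0.0393).

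In old males no member passed the test under the same treatment. With edgeR, 0 of 10 passed, and DESeq2 and limma also called 0, on a background of 0.00709% of all genes, or 1 gene of 14109. An unadjusted p under 0.05 was found in edgeR for 0 of the 10, and for 12.1% of all genes. The median log2 fold change was 0.02, and single genes lay between -0.65 ± 0.59 for Timd4 and 0.61 ± 0.83 for Marco or 0.61 ± 0.32 for Id3. Timd4 measured 1.77, 1.33, 8.15 and 1.75 CPM in old vehicle males and 1.39, 2.19, 1.73, 0.800 and 4.13 CPM in old HDM201 males, with 1 high mouse in either group. Cd5l measured 70.4, 38.2, 124 and 33.9 CPM in old vehicle males and 57.6, 56.0, 72.3, 48.6 and 188 CPM in old HDM201 males. The standard errors in males, up to 0.83, were larger than in females for each of the 10 genes.

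The difference between the sexes in the response to HDM201 was tested directly as an interaction. None of the 10 genes passed (edgeR, and 0 by DESeq2 and limma), where 0.107% of all genes passed. An unadjusted p under 0.05 was found for 3 of the 10, and for 18.5% of all genes. These 3 were Cdh5 (female minus male response -0.82 ± 0.28, FDR = 0.132), Cd5l (-1.51 ± 0.56, FDR = 0.158) and Folr2 (-1.27 ± 0.57, FDR = 0.237). A response in females that differs from that in males was therefore not shown for any member.

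**Figure D2:**
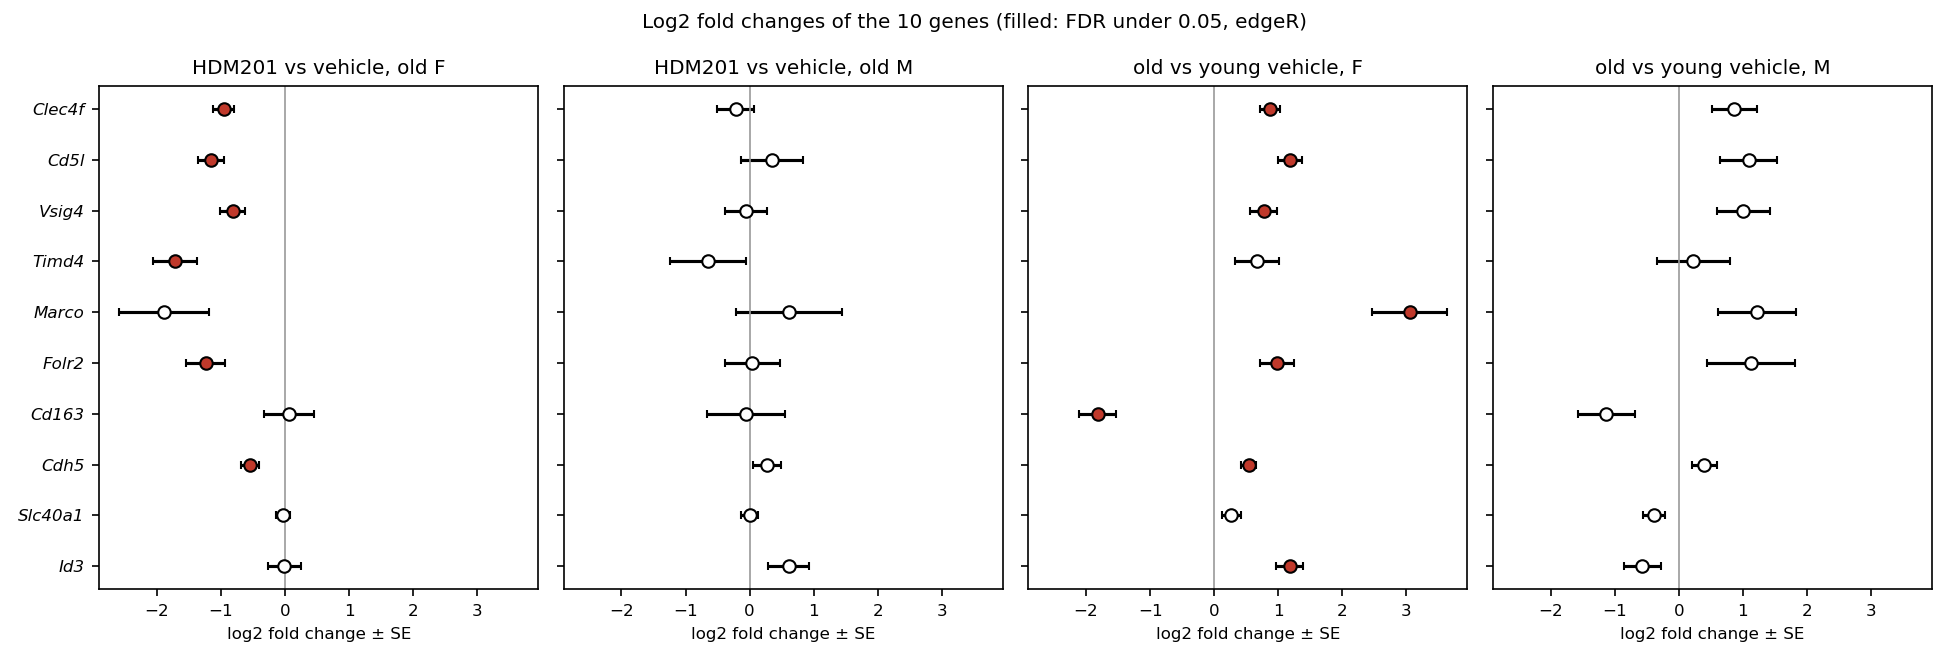
Log2 fold change (points) with its standard error (bars) of each of the 10 genes in 4 comparisons, old HDM201 against old vehicle and old against young vehicle, in females (F) and males (M). Filled points passed an FDR of 0.05 in edgeR, which was the case for 6 genes lower with HDM201 and 8 genes changed with age in females, and for none in males.

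Old vehicle females were compared with young vehicle females to show how these genes differ with age and substrain. This comparison shares its 4 old vehicle females with that of HDM201, so that a high value in these mice moves the first up and the second down. In old females 7 of the 10 genes were higher, on a background of 16.8% of 14233 genes tested, and 1, Cd163, was lower, on a background of 15%. For 5 members, Cd5l, Marco, Cd163, Cdh5 and Id3, old and young mice did not overlap in CPM, which was so for 25.9% of all genes. The median log2 fold change of the 10 genes was 0.82, against 0.01 over all genes.

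Marco, the scavenger receptor for bacteria and particles, differed most, from 1.83, 1.08, 2.44, 1.72 and 2.35 CPM in young vehicle females to the 2.69 to 32.3 CPM of old vehicle females given above (log2 fold change 3.05 ± 0.59, FDR = 0.00218). Cd5l (1.18 ± 0.19, FDR = 0.000805) and Id3 (1.18 ± 0.21, FDR = 0.00136) rose alike, followed by Folr2 (0.98 ± 0.27, FDR = 0.015), Clec4f (0.87 ± 0.16, FDR = 0.00154), Vsig4 (0.77 ± 0.21, FDR = 0.0155) and Cdh5 (0.54 ± 0.12, FDR = 0.00451). Timd4 (0.67 ± 0.34, FDR = 0.156) and Slc40a1 (0.27 ± 0.15, FDR = 0.193) did not pass. Without old vehicle female 2 the calls of Vsig4 (FDR = 0.0597) and Folr2 (FDR = 0.0583) were lost, without old vehicle female 1 Timd4 was called (FDR = 0.0484), and without young vehicle female 3 so was Slc40a1 (FDR = 0.0399). With all 6 groups in 1 fit Vsig4 (FDR = 0.0647) and Folr2 (FDR = 0.104) missed the threshold.

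Cd163, the receptor for complexes of haemoglobin and haptoglobin, went the other way. It measured 25.8, 23.6, 15.1, 15.3 and 19.2 CPM in young vehicle females, 2.11, 6.41, 8.08 and 5.48 CPM in old vehicle females and 4.12, 4.65, 5.78, 3.34 and 11.3 CPM in old HDM201 females. Both old groups lay wholly below the young group. The log2 fold change with age was -1.82 ± 0.29 (FDR = 0.000722), and it stayed called without any of the 9 mice in turn (highest FDR 0.00299). In males Cd163 measured 9.31, 20.6, 6.27 and 8.60 CPM in young vehicle, 4.33, 6.20, 7.75 and 1.91 CPM in old vehicle and 1.22, 4.92, 5.25, 1.33 and 11.3 CPM in old HDM201 mice, and the male groups overlapped.

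In males none of the 10 genes passed between old and young vehicle mice (edgeR, and 0 by DESeq2 and limma), on a background of 3.69% of all genes. An unadjusted p under 0.05 was found for 4 of the 10, and for 21.9% of all genes. The 4 were Cd163 (-1.13 ± 0.44, FDR = 0.167), Clec4f (0.87 ± 0.35, FDR = 0.178), Cd5l (1.09 ± 0.44, FDR = 0.18) and Vsig4 (1.01 ± 0.41, FDR = 0.184). With all 6 groups in 1 fit Clec4f passed (0.85, FDR = 0.0388). The median log2 fold change of the 10 genes was 0.63, and in the direct test of the difference in age effect between the sexes none of these 4 had an unadjusted p under 0.05.

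In edgeR on the mice with counts, Id3 differed in its age effect between the sexes. Old females were 20 and old males 24 months old, so that sex cannot be told apart from this difference in age. It measured 81.0, 47.1, 47.0, 51.6 and 39.3 CPM in young vehicle females and 104, 143, 81.6 and 145 CPM in old vehicle females, whereas in males it measured 95.6, 97.5, 74.8 and 87.5 CPM in young vehicle and 87.0, 78.5, 28.2 and 44.4 CPM in old vehicle mice (log2 fold change -0.57 ± 0.29, FDR = 0.299). Old females were all above young ones, and the males overlapped. The interaction of sex and age was 1.76 ± 0.39 (FDR = 0.0233), the only 1 of the 10 genes called in that test, in which 3.92% of all genes were called. The call was lost without old vehicle female 4 (FDR = 0.0556), with limma on FPKM when old vehicle male 1 and young vehicle male 5 were in the fit (1.27 ± 0.61, FDR = 0.364, against 1.93 ± 0.45, FDR = 0.0284, without them), and when replicate number was a block (FDR = 0.105). In FPKM, Id3 measured 112.2 in old vehicle male 1 and 17.06 in young vehicle male 5, the highest and the lowest male of their groups. Slc40a1 also had an unadjusted p under 0.05 for this interaction (0.65 ± 0.24, FDR = 0.125), as did 21.5% of all genes, with a log2 fold change of 0.27 ± 0.15 in females and -0.38 ± 0.17 in males.

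Old HDM201 females were also set against young vehicle females. Here 2 of the 10 genes were lower, on a background of 12.6%, and 1 was higher, on a background of 14.2%. Cd163 (-1.76 ± 0.28, FDR = 0.000678) and Timd4 (-1.06 ± 0.22, FDR = 0.00328) were the lower ones. Timd4 measured 8.13, 5.23, 4.11, 4.14 and 4.17 CPM in the young females, and its call was lost when all 6 groups shared 1 fit (FDR = 0.0787). Id3 was higher (1.17 ± 0.24, FDR = 0.00372), at 191, 93.9, 83.4, 143 and 86.0 CPM in the treated females. Between old HDM201 and young vehicle males, 1 gene, Cd5l, was higher (1.43 ± 0.44, FDR = 0.0418), on a background of 11.6%. That single call was lost without old HDM201 male 3 or 5 or young vehicle male 1, 3 or 4, while 4 genes passed without old HDM201 male 4 and 5 without young vehicle male 2.

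Several members were higher in females than in males among the mice with counts. Among young vehicle mice 4 of the 10 genes were higher in females, on a background of 5.63%: Clec4f (1.06 ± 0.22, FDR = 0.0115), Vsig4 (1.11 ± 0.28, FDR = 0.028), Cd5l (0.95 ± 0.26, FDR = 0.0401) and Cdh5 (0.6 ± 0.15, FDR = 0.0274). Id3 was lower in young females (-0.75 ± 0.18, FDR = 0.0218), on a background of 4.91%. Among old vehicle mice 2 were higher in females, on a background of 8.40%: Clec4f (1.07 ± 0.3, FDR = 0.0353) and Cdh5 (0.74 ± 0.16, FDR = 0.0115). All 10 fold changes between old vehicle females and males were above 0. Of the lists described further on, so were 10 of 10 stellate, 14 of 15 pan-macrophage and 14 of 16 sinusoidal endothelial genes. Of hepatocyte genes 3 of 10 were above 0, and of lipid-associated macrophage genes 2 of 8. These counts moved with single mice. In young mice, 8 genes passed without young vehicle male 2. Among young males with counts, it was highest for these 5 genes and for Timd4, Folr2 and Cd163. From 1 to 3 genes passed without young vehicle female 1, 2 or 5 or young vehicle male 1, 3 or 4. In old mice, 6 passed without old vehicle male 4, and 1 passed without old vehicle female 2, 3 or 4 or old vehicle male 3 or 5. The 2 males without counts went the other way. Clec4f measured 62.67 FPKM in young vehicle male 5, against at most 48.89 in young females, and 136.5 FPKM in old vehicle male 1, against at most 118.5 in old females. Young vehicle male 5 was above every young female in 8 of the 10 genes, and old vehicle male 1 above every old female in 5. With both in the fit limma on FPKM called 0 of the 10 genes at either age (Clec4f 0.73 ± 0.32, FDR = 0.267 in young and 0.82 ± 0.44, FDR = 0.404 in old mice), and without them it called 1 in young mice, Clec4f (FDR = 0.0158), and 2 in old mice, Clec4f (FDR = 0.0402) and Cdh5 (FDR = 0.038). Old females and males also differed in age, 20 against 24 months.

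Most of the members varied together between mice of the same group. After the group mean was taken from log2(CPM + 1), Clec4f and Vsig4 had a Pearson r of 0.924 over the 27 mice (Spearman's rho 0.86, and r of 0.878 without the 2 mice farthest from the median of Clec4f), Clec4f and Folr2 one of 0.894, and Clec4f and Cd5l one of 0.889. Timd4 followed Clec4f at 0.792 and Cd163 did so at 0.809, although Cd163 differed from Clec4f in its direction with age. Slc40a1 and Id3 had the lowest r to Clec4f, 0.136 and 0.001, which became 0.298 and 0.271 without the 2 mice farthest from the median. Slc40a1 had an r of 0.554 with Marco, whose own r to Clec4f was 0.558. The values being compared share a library, and thus its depth and composition, and Clec4f had a median r of -0.01 with all 12772 other genes that had a mean of at least 1 CPM.

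**Figure D3:**
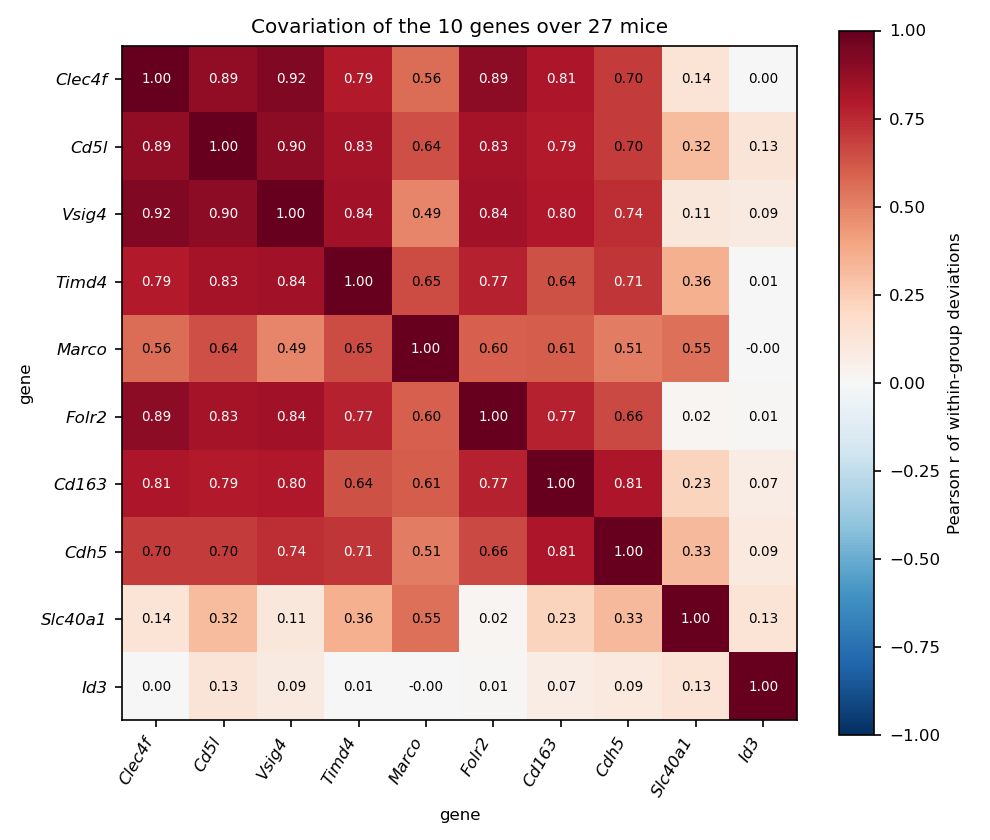
Pearson r between each pair of the 10 genes over 27 mice, computed on log2(CPM + 1) after the mean of the mouse's group was taken away. Clec4f, Cd5l, Vsig4, Timd4, Folr2, Cd163 and Cdh5 form a block of high values, Marco is lower, and Slc40a1 and Id3 have values near 0 with Clec4f (0.136 and 0.001).

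The mice that carried this variation could be named. In old vehicle females, all 10 members were above their group mean in mice 2 and 4 and all 10 were below it in mouse 1. In old HDM201 males all 10 were above the mean in mouse 5 and none in mouse 1. The mean deviation of the members was 0.45 and -0.66 (log2) in old vehicle females 2 and 1, where that of 15 pan-macrophage genes was 0.38 and -0.43, that of 16 sinusoidal endothelial genes 0.17 and -0.03 and that of 10 hepatocyte genes -0.05 and -0.05. In old HDM201 male 5 the members deviated by 0.85 and the pan-macrophage genes by 0.75, with 0.02 for endothelial and -0.16 for hepatocyte genes, and in old vehicle male 4 by 0.68 and 0.67. Members and pan-macrophage genes did not always move together. In old HDM201 male 4 they deviated by -0.57 and -0.05 (endothelial genes -0.36), and in old HDM201 male 2 by -0.02 and -0.46 (endothelial genes 0.34).

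By the same measure, the genes nearest to Clec4f were Vsig4 (0.924), Folr2 (0.894) and Sdc3 (0.893), those nearest to Cd5l were Sdc3 (0.956), the complement gene C1qc (0.952) and Fcgr4 (0.932), and those nearest to Vsig4 were Clec4f (0.924), the CSF1 receptor gene Csf1r (0.918) and C1qb (0.905). Timd4 was nearest to Adgre4 (0.846), Marco to Clec4a1 (0.768), Folr2 to Clec4f (0.894) and Cd163 to Sdc3 (0.834) and the sialoadhesin gene Siglec1 (0.817). Cdh5, known from endothelium, was nearest to Maf (0.869), the mannose receptor gene Mrc1 (0.866) and the scavenger receptor gene Msr1 (0.856). Its median r was 0.549 with the pan-macrophage genes and 0.401 with the sinusoidal endothelial genes, against 0.783 and 0.133 for Clec4f. The level of Cdh5 in whole liver therefore followed genes of both lists. Id3 was nearest to Id1 (0.78) and Id2 (0.748), other genes of its family, and had a median r of 0.202 with the pan-macrophage genes. Slc40a1 was nearest to Cpn2 (0.691), with a median r of 0.285 to the pan-macrophage genes. Against their label as Kupffer cell genes, Slc40a1 and Id3, which other liver cells also express, thus had the lowest median r with macrophage genes, while the median for Timd4, Folr2, Cd163 and Marco was 0.697, 0.728, 0.626 and 0.534.

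Ratios within a mouse set the members against Csf1r, the receptor for CSF1 that all macrophages carry. They are descriptive and were computed after the fold changes had been seen. Cd163 measured 52.6, 58.8, 44.8, 41.6 and 50.1% of the CPM of Csf1r in young vehicle females and 65.3, 56.1, 31.9 and 49.6% in young vehicle males. In old mice the ratio ran from 3.55 to 11.2% in vehicle females, 10.6 to 22.03% in HDM201 females, 8.28 to 20.4% in vehicle males and 3.26 to 15.97% in HDM201 males. Every old mouse with counts, of either sex, thus had less Cd163 for its Csf1r than every young mouse. Timd4 measured 10.9 to 16.6% of Csf1r in young vehicle females and 11.8 to 13.6% in young vehicle males, against 6.22 to 10.6% and 4.38 to 12.0% in old vehicle females and males and 4.57 to 7.68% and 2.15 to 7.12% in old HDM201 females and males. Only old vehicle male 4 reached the young range. The mean CPM of Timd4 itself was not lower in old than in young vehicle mice. It was 7.939 against 5.155 in females and 3.252 against 2.804 in males. Csf1r measured 40.41 CPM in old and 21.99 CPM in young vehicle males. A lower ratio in old vehicle mice is thus not a lower level of Timd4. The ratio of Clec4f to Csf1r had a mean of 221% ± 12.1 (SD, n = 5) in young vehicle, 181% ± 27.2 (n = 4) in old vehicle and 209% ± 23.3 (n = 5) in old HDM201 females, while in males it was 195% ± 45.8 (n = 4) in young vehicle, 186% ± 10.96 (n = 4) in old vehicle and 138% ± 28.7 (n = 5) in old HDM201 mice. The 5 old HDM201 males, at 94.1 to 170.0%, lay just below the 4 old vehicle males with counts, at 172 to 199%. Old vehicle male 1 is not among them, and this difference was not tested. With HDM201 in old males, Clec4f itself was not called (-0.22 ± 0.29, FDR = 0.786).

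**Figure D4:**
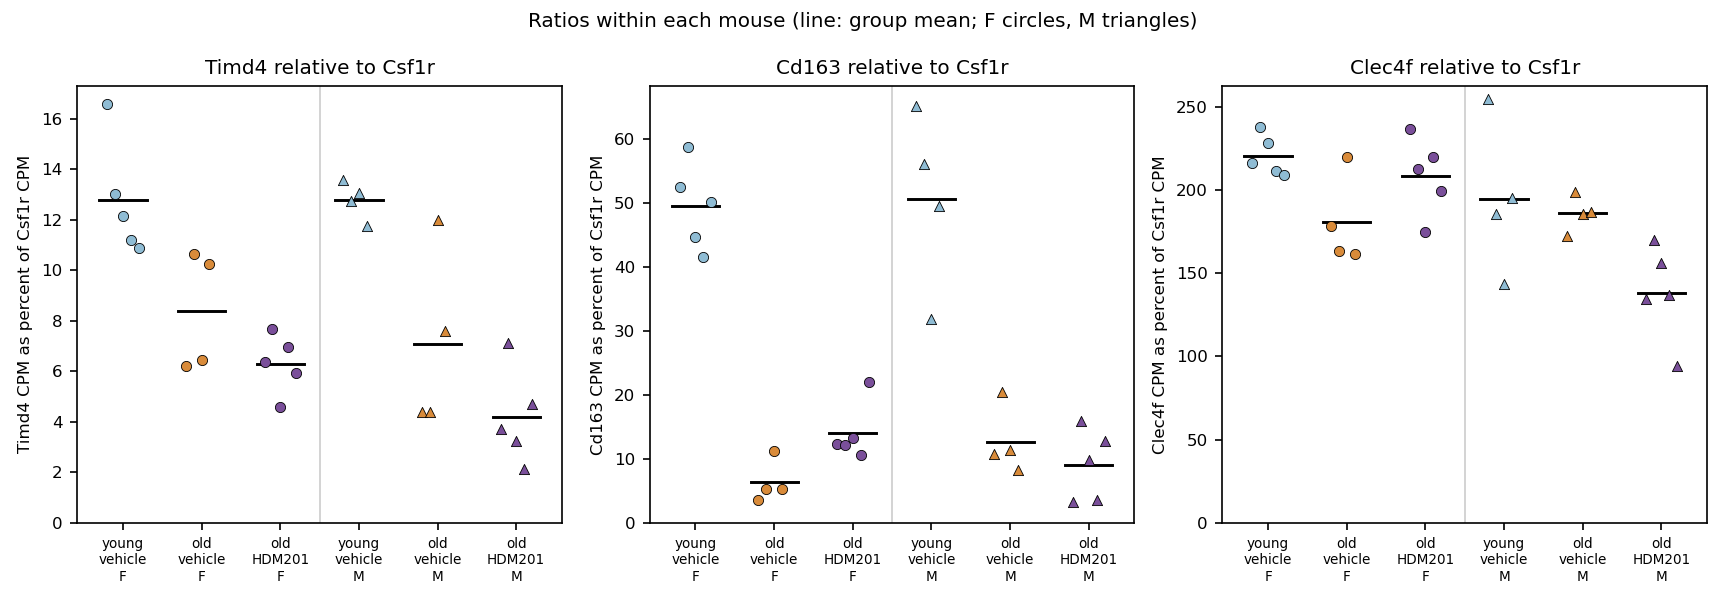
CPM of Timd4, Cd163 and Clec4f as a percent of the CPM of Csf1r in each mouse of the 6 groups, with a line at the group mean. All 18 old mice with counts lie below all 9 young mice with counts for Cd163 relative to Csf1r.

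Genes on other lists give the setting of these changes. Of 15 pan-macrophage genes, 13 fell with HDM201 in old females and none rose (median log2 fold change -0.95), with the lysosomal protease gene Ctss (-0.84, FDR = 0.00987), C1qc (-1.04, FDR = 0.00987), Csf1r (-1.18, FDR = 0.00999) and C1qa (-1.05, FDR = 0.00999) at the lowest p. In old against young vehicle females 14 of the 15 rose (median 1.17). Their summed level was 472 to 894 CPM in old vehicle females, 319 to 473 CPM in old HDM201 females and 266 to 383 CPM in young vehicle females. In the main fit, the fall of Clec4f, Cd5l, Vsig4, Timd4, Folr2 and Cdh5 thus came with a fall of genes shared by all macrophages. The calls on all lists are those of this fit. Other fits and fits without single mice, on which the members' calls depended, are not given for the lists. In old males 0 of the 15 were called with HDM201, and 6 rose with age, among them the lysozyme gene Lyz2 (1.81, FDR = 0.00977).

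Of 14 tested genes of the wider Kupffer signature, 13 lay below 0 with HDM201 in old females (median -0.45), and 3 were called lower. Those 3 were Tmem26 (-1.42, FDR = 0.0151), C6 (-1.01, FDR = 0.017) and Gfra2 (-1.31, FDR = 0.05, rounded up from below the threshold). Sucnr1, a succinate receptor, rose (0.49, FDR = 0.037). The level of C6 did not follow Clec4f between the sexes. It measured 14.17 CPM in young vehicle females and 267.1 CPM in young vehicle males, where Clec4f measured 87.41 and 41.64 CPM. With age 9 of the 14 rose in females, such as the haem oxygenase gene Hmox1 (1.23, FDR = 0.00109), and 3 of 13 in males. Of 11 transcription factors of the Kupffer programme, Spi1, which encodes PU.1, fell (-1.05, FDR = 0.00987) and Irf8 fell (-0.64, FDR = 0.0193) with HDM201 in old females. Of the factors reported here, Spi1 (1.43, FDR = 0.000359), Irf8 (1.03, FDR = 0.000139), Maf (0.45, FDR = 0.000627) and Spic (1.25, FDR = 0.00838, named after its value was seen) rose with age in females.

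Among 10 ligands of the Kupffer niche none was called with HDM201 in either sex, and with age Csf1 (0.98, FDR = 0.00504) and Tgfb1 (0.98, FDR = 0.000387) rose and Bmp10 fell (-0.48, FDR = 0.0371) in females. Of 13 genes of iron handling, 3 fell with HDM201 in old females, the transferrin receptor gene Tfrc (-0.44, FDR = 0.00999), Blvrb (-0.28, FDR = 0.0334) and Slc11a1 (-0.86, FDR = 0.0437), the last a phagosomal metal transporter of macrophages, while Slc40a1 was not called. With age 7 of the 13 rose and 1 fell in females. The sinusoidal endothelial list, to which Cdh5 would belong by its best known site, had 0 of 16 genes called with HDM201 in old females (median -0.13). Of the 16, 3 had an unadjusted p under 0.05 in edgeR, as did 22.5% of all genes. With age in females 1 of the 16 rose and 1 fell. Its summed level was 359.2 to 433.6 CPM in old vehicle and 323.6 to 408.8 CPM in old HDM201 females.

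Markers of other cells are given beside these. By its calls, a list this short with 0 or 1 call with HDM201 cannot be told apart from the 5.25% called over all genes in old females. In direction, 8 of 9 monocyte genes (median log2 fold change -0.88) and 5 of 6 B and plasma cell genes (-0.85) lay below 0. So did 2 of 2 neutrophil (-1.51), 4 of 4 dendritic (-0.57) and 6 of 6 T and NK cell genes (-0.44). Above 0 lay 6 of 8 lipid-associated macrophage (0.24) and 4 of 4 cholangiocyte genes (0.79). The median over all genes was 0.0. Of 8 genes of lipid-associated macrophages, 1, Spp1, rose with HDM201 in old females (0.93, FDR = 0.0104) and none fell. With age 5 of 7 genes rose and 1, Fabp5, fell (-1.73, FDR = 0.000175) in females, and 5 of 8 rose in males, including Gpnmb (4.34, FDR = 8.72e-05 in females) and Itgax (2.39, FDR = 8.54e-05 in females). Of 8 tested monocyte genes 7 rose with age in females, such as Cx3cr1 (2.19, FDR = 0.000229), and of 9 tested with HDM201 1 fell, Cd300e (-2.38, FDR = 0.016). Of 6 B and plasma cell genes 5 rose with age in females and 1, Cd79b, fell with HDM201 (-1.08, FDR = 0.00987). The stellate list had 0 of 10 genes called with HDM201 in old females, while 5 rose and 1 fell with age. The hepatocyte list of 10 had 1 gene lower with HDM201, Hnf4a (-0.27, FDR = 0.032), and 3 lower with age in females. Of the smaller lists, 1 of 4 cholangiocyte genes (Epcam, 0.96, FDR = 0.0229), 0 of 2 neutrophil, 0 of 4 dendritic and 0 of 6 T and NK cell genes were called with HDM201 in old females, and 1, 2, 1 and 2 of them rose with age in females. What share of the members' changes came with a changed number of macrophages was not tested.

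**Figure D5:**
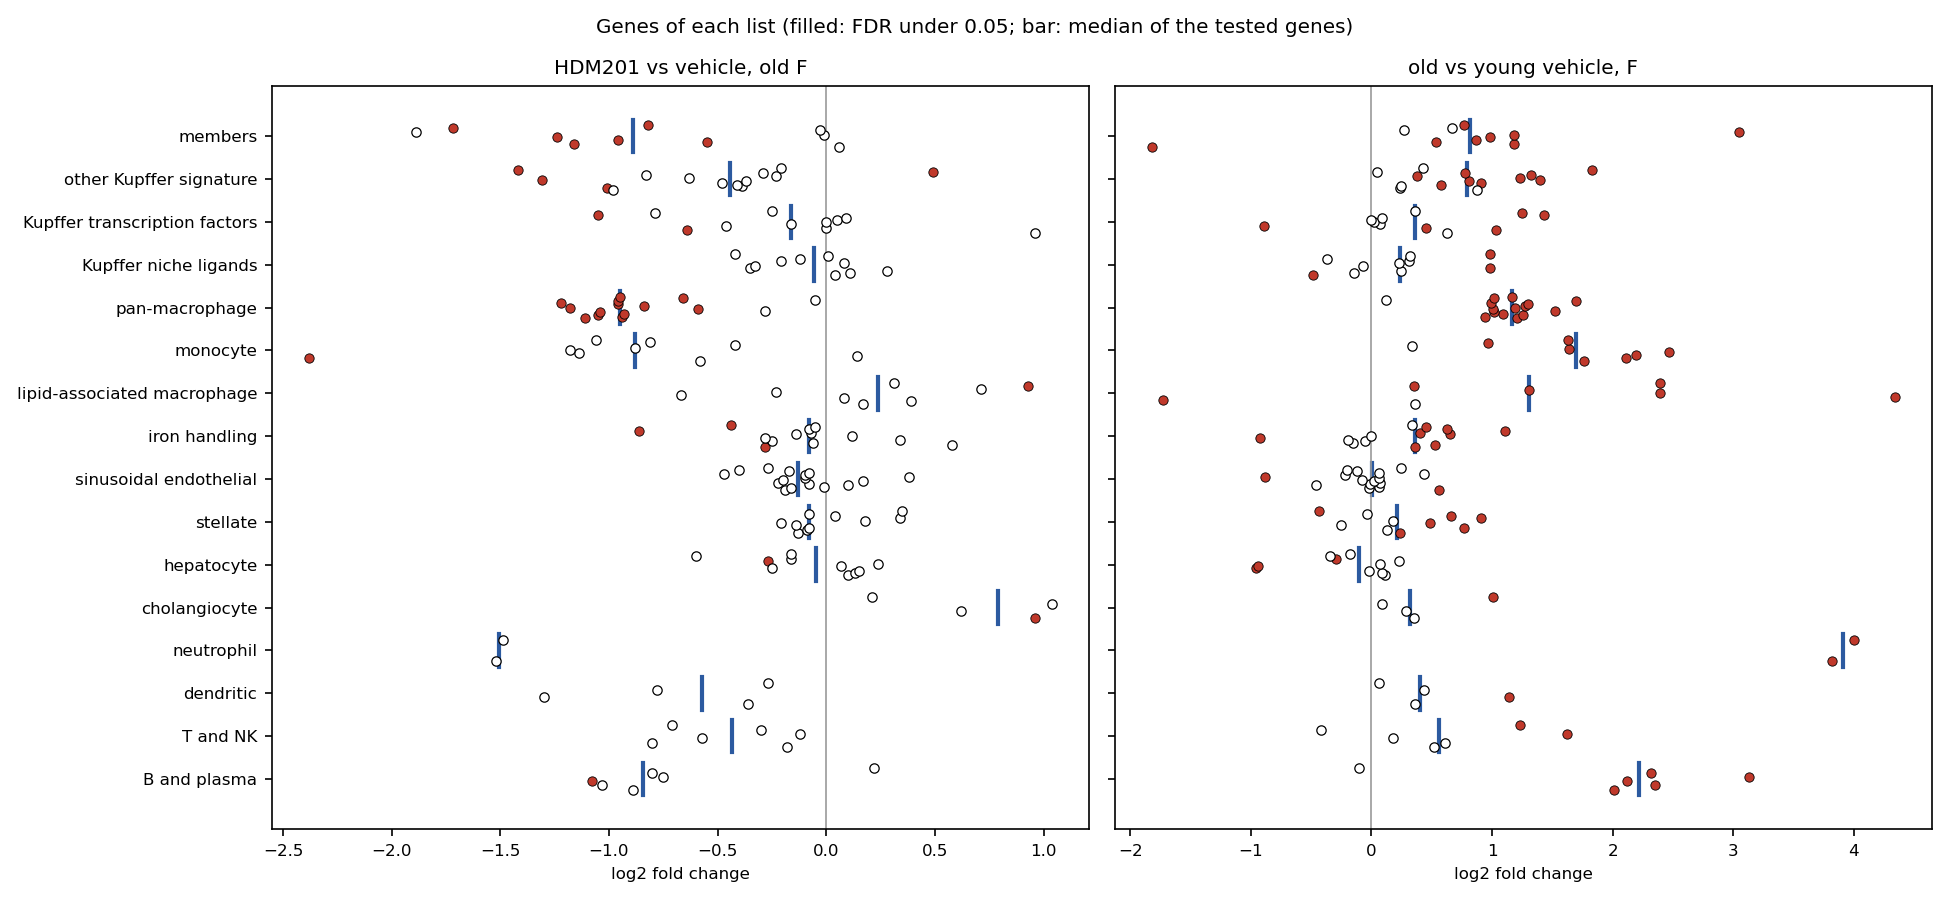
Log2 fold change of every tested gene of the lists in old HDM201 against old vehicle females (left) and in old against young vehicle females (right), 1 point a gene, filled where the FDR was under 0.05, with a bar at the median of the list. The members and the pan-macrophage genes lie mostly below 0 on the left (medians -0.89 and -0.95) and above 0 on the right (0.82 and 1.17). So do the monocyte list (-0.88 left, 1.7 right), the B and plasma cell list (-0.85, 2.22) and the 2 neutrophil genes (-1.51, 3.91). The medians of the lipid-associated macrophage (0.24, 1.31) and cholangiocyte lists (0.79, 0.32) are above 0 on both sides.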

How the data were processed

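Liver RNA of 29 mice was sequenced (polyA, bulk). Per the labels and the methods, alignment by the authors was to mm10 (STAR), and they deposited HTSeq read counts per gene, used here for 27 mice (old vehicle male 1 and male 5 of the young vehicle group were not analysed as counts), and Cufflinks FPKM, used for all 29. Whether counting used strand is not given in the sources used here. From the counts, edgeR 4.0.16 (R 4.3.3; filterByExpr, minimum count 10, minimum total 15; TMM; quasi-likelihood test; Benjamini-Hochberg FDR over all genes tested, threshold 0.05) was fitted to the groups of each comparison. CPM used TMM factors over the 27 mice. The members and all lists were chosen with earlier results of these data known. All 10 members were described in every comparison, and of each list the counts called, the median and at most 4 genes of lowest p. Of 159 genes on the lists, members included, 158 had a row of their own, and Tf had none under that name. GENCODE M21 gave positions and lengths. Alternatives were RLE scaling, DESeq2 1.42.0, all genes kept, a single fit of the 6 groups, a replicate block, an FDR of 0.01, each mouse left out, and limma 3.58.1 on log2(FPKM + 1) and log2(FPKM + 0.1) where the mean FPKM was at least 0.1, with empty FPKM cells read as 0. Ratios to Csf1r were added after the fold changes were seen. Nothing in the labels names separate litters or days, and p-values measure the spread between these mice. Some results of the lists are not reported here.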

Additional observations from a re-analysis of the deposited data

Results flagged for a closer look

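Among the mice with counts, single mice stood apart in 9 of 60 sets of a member and a group, each the highest of its group by Dixon's criterion. Chance meets it in about 5% of independent sets, but the members vary together and the same mice recur. In FPKM, young vehicle male 5 was above young vehicle male 2 for Cd5l (67.26 against 25.16) and Vsig4 (24.93 against 12.68). Old vehicle male 1 was above old vehicle male 4 for Marco (25.57 against 6.067) but not for Timd4 (2.342 against 3.175). Young vehicle male 2 was high for Cd5l (56.2 CPM) and Vsig4 (19.3 CPM). Old HDM201 male 5 was high for Cd5l (188 CPM) and Vsig4 (32.2 CPM). Old vehicle male 4 was high for Timd4 (8.15 CPM), Marco (13.2 CPM) and Folr2 (6.49 CPM). Young vehicle female 1 was high for Timd4 (8.13 CPM), and young vehicle female 3 for Slc40a1 (187 CPM). In the 3 males the pan-macrophage genes also deviated from their group mean, by 0.47, 0.75 and 0.67 on the log2 scale.

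Id3 differed between the sexes in its age effect, by 1.76 on the log2 scale (female minus male) in the interaction test of edgeR. As described above, the call was lost under several alternatives, and old females and old males differed in age.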

How the results depend on the processing

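The count of members called changed by more than 1.5 times under several settings, whose cause was not tested beyond their construction. For HDM201 in old females the count of 6 became 0 with all 6 groups in 1 fit, 0 and 0 with limma on FPKM at either pseudocount, and 1 at an FDR of 0.01. For age in males the count of 0 became 1 with all 6 groups. For old HDM201 against young vehicle males the count of 1 became 3 with DESeq2, 3 with no filter and 3 with all 6 groups, and 0 with limma and at an FDR of 0.01. Between the sexes, the 5 calls in young mice became 3 with all 6 groups, and 0 with limma and at an FDR of 0.01, and the 2 in old mice became 4 with no filter, and 0 with limma and at an FDR of 0.01. The 1 call for the interaction of sex and age became 0 with limma and at an FDR of 0.01.

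Leaving out 1 mouse at a time gave 2 to 6 calls for HDM201 in old females, 0 to 0 in old males, 6 to 9 for age in females, 0 to 0 in males, 3 to 4 and 0 to 5 for old HDM201 against young vehicle females and males, 1 to 8 and 1 to 6 between the sexes in young and old mice, and 0 to 0 and 0 to 1 for the interactions of sex with HDM201 and with age. The fold changes that turned sign were of members not called. For HDM201 in old females these ran from -0.32 to 0.29 for Cd163, -0.14 to 0.06 for Slc40a1 and -0.24 to 0.11 for Id3. In old males they ran from -0.41 to 0.15 for Clec4f, -0.18 to 0.83 for Cd5l, -0.3 to 0.35 for Vsig4, -1.08 to 0.34 for Timd4, -0.23 to 0.72 for Folr2, -0.66 to 0.22 for Cd163 and -0.09 to 0.07 for Slc40a1, and for age in males from -0.77 to 0.58 for Timd4. With limma (pseudocounts of 1 and 0.1), HDM201 in old males gave -0.05 and -0.04 for Cd5l, -0.25 and -0.35 for Marco and -0.18 and -0.18 for Folr2, and age in males gave -0.14 and -0.23 for Timd4 and 0.01 and 0.01 for Id3. Limma on log2(FPKM + 1) with only the mice that have counts, chosen after seeing the data, called 1 gene in old HDM201 against young vehicle males, 1 and 2 between the sexes in young and old mice and 1 for the interaction of sex and age, where limma with all mice called 0, and gave 0.18 for Vsig4 with HDM201 in old males.

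Replicate numbers are shared between groups, but same-numbered mice did not deviate together (correlations of -0.318 to 0.241). With replicate number as a block the count was 6 for HDM201 in old females and 7 for age in females, where Vsig4 missed the threshold, and 0 for the interaction of sex and age. Signs turned under the block for Cd163 (-0.25) and Id3 (0.05) with HDM201 in old females, for Vsig4 (0.04) and Cd163 (0.02) with HDM201 in old males and for Timd4 (-0.07) with age in males.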
